A study of Homo sapiens with 12 samples.

Results

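The genes described here are 45 genes of mitosis and the spindle, taken by their symbols out of the 26475 gene symbols of an RNA-seq count table, and all 45 were among the 14582 genes that passed the filter on low counts and were tested. They were measured in MIAPaCa2, an established human pancreatic ductal adenocarcinoma cell line, in 4 groups of 3 samples: untreated parental cells, parental cells treated with an LDHA inhibitor, untreated oxamate-resistant cells and oxamate-resistant cells treated with the LDHA inhibitor. The inhibitor is sodium oxamate, a pyruvate analog that competes for lactate dehydrogenase A, and the untreated samples are the ones the study calls vehicle-treated. The oxamate-resistant cells were polyclonal populations isolated from MIAPaCa2 cells kept continuously in oxamate, so a difference between the lines can hold both selection and adaptation, which cannot be told apart here. The dose and time of oxamate before RNA extraction are not given in the sources used here. Nothing in the labels says that the 3 replicates of a group were separate cultures, so the p-values below measure the spread between these samples, which may be technical.

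Most of these genes are transcribed in a wave that begins after DNA replication and peaks in G2 and mitosis. During G1 their promoters are held down by the DREAM complex, in which the MuvB core, the pocket proteins p107 and p130 and E2F4 sit on a cell cycle genes homology region (CHR), often with CCAAT boxes upstream that bind NF-Y. Later in the cycle the MuvB core binds B-MYB (MYBL2) and then FOXM1, which turn the same promoters on. Their proteins start mitosis, attach chromosomes to spindle microtubules, hold anaphase back until every chromosome is attached, and divide the cell. Their summed RNA is therefore widely read as a sign of how much of a culture is cycling, but in bulk RNA fewer cells in G2 or mitosis and less of these RNAs per cell cannot be told apart.

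Promoter sequences were at hand in RefSeq (GRCh38.p14, from 250 bases before to 50 bases after each annotated start) for 38 of the 45 genes. AURKA, BUB3, TTK, BIRC5, TPX2, UBE2C and FOXM1 had no entry. A gene was counted if the window of any of its starts held a match. A CHR motif, searched as TTTGAA or TTCGAA on both strands, lay in 30 of the 38 genes, or 78.9%. Of 9999 other tested genes, counted alike, 15.1% had one, as did 16.4% of all 35116 single promoters in the table. CCAAT, searched on both strands, lay in 32 genes, or 84.2%, against 42.7% of the other tested genes and 34.6% of single promoters. Both motifs lay in 26 genes, or 68.4%, against 6.3% and 6.4%. In 20 of the 30 genes a CHR match began within the 70 bases before the start. This position was not counted for other genes, so it has no share to be set against. The 100 bases before the start are shown for 3 genes whose RNA was lower in resistant cells (CDK1, CCNB2 and PLK1) and for 3 whose RNA was higher there (KIF11, KIF18A and CENPE). They are printed 5′ to 3′ on the gene's strand, and capitals mark CHR and CCAAT matches on either strand.
CDK1 (chr10:60778378-60778477, + strand): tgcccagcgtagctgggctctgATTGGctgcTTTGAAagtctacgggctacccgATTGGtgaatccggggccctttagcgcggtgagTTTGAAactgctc
CCNB2 (chr15:59105046-59105145, + strand): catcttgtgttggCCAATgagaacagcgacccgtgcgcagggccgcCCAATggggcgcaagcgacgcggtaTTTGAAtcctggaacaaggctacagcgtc
PLK1 (chr16:23678789-23678888, + strand): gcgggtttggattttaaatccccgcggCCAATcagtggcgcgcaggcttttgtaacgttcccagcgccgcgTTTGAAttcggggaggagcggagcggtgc
KIF11 (chr10:92593030-92593129, + strand): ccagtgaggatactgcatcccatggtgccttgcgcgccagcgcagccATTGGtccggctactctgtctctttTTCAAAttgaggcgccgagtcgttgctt
KIF18A (chr11:28108157-28108256, - strand): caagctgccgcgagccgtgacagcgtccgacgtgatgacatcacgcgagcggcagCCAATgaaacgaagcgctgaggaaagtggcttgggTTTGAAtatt
CENPE (chr4:103198344-103198443, - strand): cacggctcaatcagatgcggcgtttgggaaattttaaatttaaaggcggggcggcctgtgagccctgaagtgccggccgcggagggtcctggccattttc
The stretches of CDK1, CCNB2, PLK1, KIF11 and KIF18A hold a CCAAT and, downstream of it, a CHR match close to the start. The stretch of CENPE holds neither, and nor does the rest of its window. CDK1 has 2 annotated starts in the table and the stretch belongs to 1 of them. These are matches of letters, and binding was not measured.

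The libraries summed to between 46698729 and 114222169 expected counts, those of all 6 parental samples being deeper than those of the resistant ones. The lowest count of any of the 45 genes in any library was 443. Levels are in CPM, counts per 1000000 of the library total after TMM scaling. Log2 fold changes are signed, as oxamate minus untreated within a line, resistant minus parental between lines, and resistant minus parental response for the difference of responses, and ± after them is the standard error from edgeR. MALAT1, NEAT1, KCNQ1OT1 and MIAT, RNAs that stay in the nucleus, summed to 321 to 357 CPM in untreated parental cells, to 557, 544 and 1187 CPM in parental replicates 1 to 3 on oxamate, to 583, 534 and 1112 CPM in untreated resistant replicates 1 to 3, and to 1079.9 to 1407 CPM in resistant cells on oxamate. The third oxamate-treated parental and the third untreated resistant library thus stood apart from their groups, and results that rest on them are given with and without them. KRT8, KRT18, KRT19 and VIM were high in all samples, whereas EPCAM and CDH1 were below the floor of 3 counts (0.0283 to 0.0581 CPM) as group means and KRT7 stayed under 1 CPM. The summed epithelial markers ran from 3279 to 3671 CPM in the parental and from 1760 to 1850 CPM in the resistant samples, and the mesenchymal ones from 9463 to 10176 and from 5998 to 6446 CPM. Markers of other cell types were partly at or near 0, with group means of at most 0.0283 CPM for PTPRC and CD3E of leukocytes, KDR of endothelium and DCN and LUM of fibroblasts, and partly not. CD68, a lysosomal protein of macrophages, had means of 160.4 CPM in untreated and 215 CPM in oxamate-treated parental cells against 60.8 and 57.7 CPM in the resistant groups, and CD14 had 2.38 to 4.67 CPM. Of the collagens, COL1A2 had 703 to 941 CPM, COL1A1 1.00 to 1.89 CPM, and COL3A1 31.7 and 36.5 CPM in the parental groups against 14.0 and 13.7 CPM in the resistant ones, while the endothelial marker CDH5 had 0.450 to 0.860 CPM and PDGFRB, PECAM1 and VWF at most 0.202 CPM. The summed leukocyte markers were at 158 to 225 CPM in parental and 59.97 to 65.4 CPM in resistant samples, the fibroblast ones at 724 to 987 CPM and the endothelial ones at 0.619 to 1.24 CPM over all samples. What part these markers have in the differences between the lines was not tested.

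Per kilobase of the principal transcript, the scale on which different genes can be compared, the 45 genes spanned a wide range in untreated parental cells. UBE2C, the ubiquitin-conjugating enzyme that works with the anaphase-promoting complex, was the highest at 286 ± 3.72 CPM per kb (SD, n = 3), followed by CDC25B at 159.8 ± 3.51, TOP2A at 154 ± 5.22 and CDC20 at 149.9 ± 4.00. The SDs of CDC25B and TOP2A, and those of TOP2A and CDC20, overlapped. The lowest were ESPL1, the separase, at 3.64 ± 0.184 CPM per kb and CENPE, a kinetochore motor, at 3.91 ± 0.327, whose SDs overlapped too. For 9 of the genes (CCNA2, CDC25C, AURKA, BUB1B, KIF4A, KIF14, PRC1, HMMR and FOXM1) the expected counts were not whole numbers in some libraries, so part of their reads was divided with other transcripts and their levels are less certain.

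**Figure D1:**
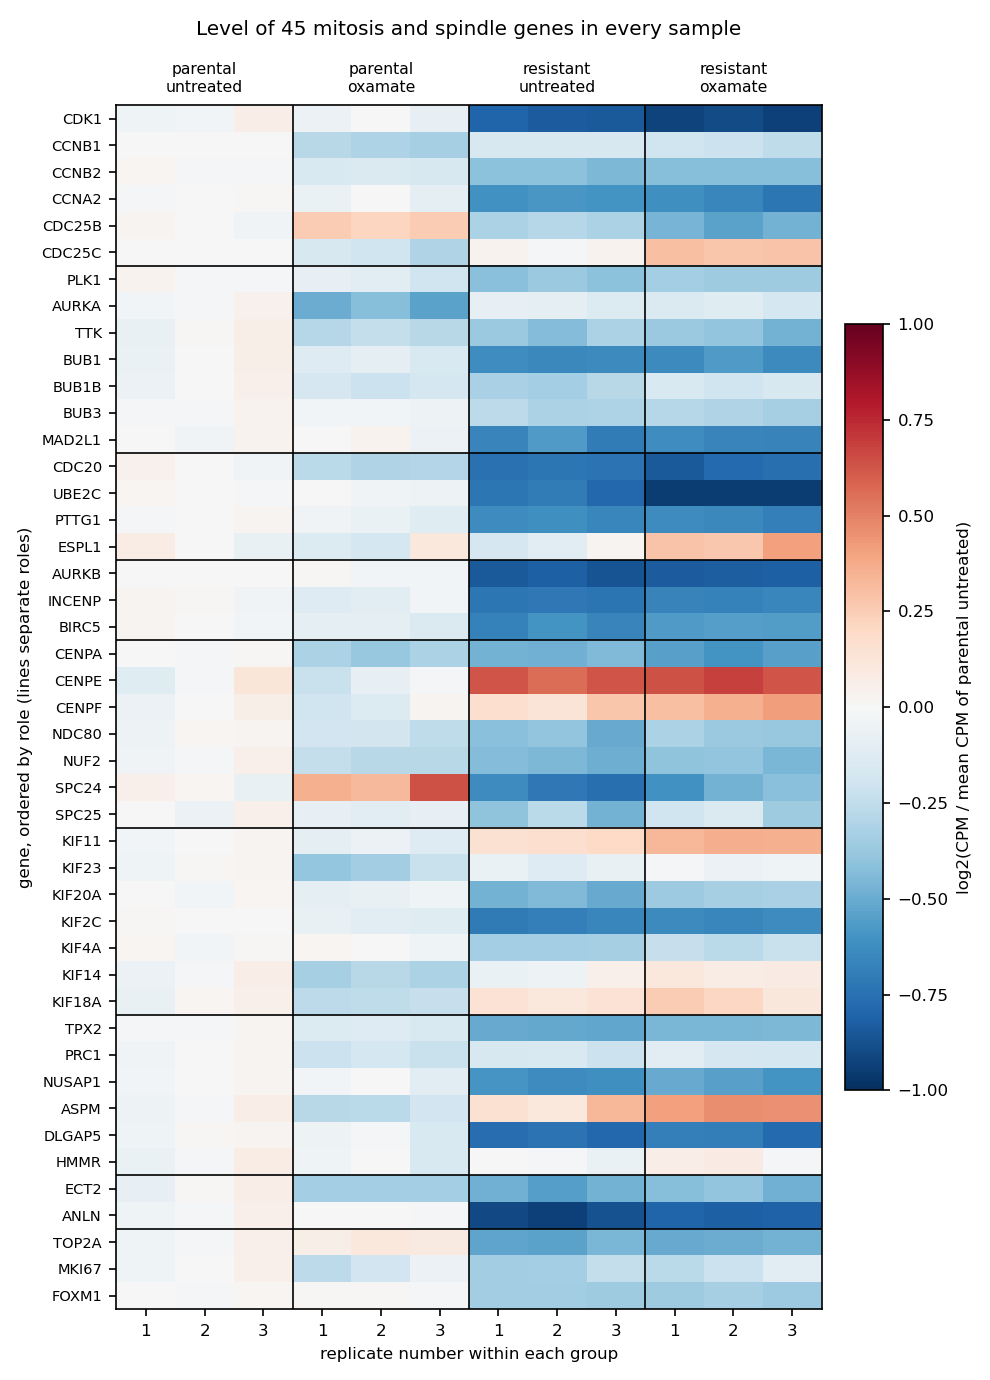
Each row is 1 of the 45 genes, ordered by role with black lines between roles, and each column 1 of the 12 samples; the color gives log2 of the CPM over the gene's mean CPM in untreated parental cells. Most rows are blue in the 6 resistant samples, whereas CENPE, ASPM, CENPF, KIF11 and KIF18A are red there, and AURKA is bluest in the 3 oxamate-treated parental samples; with scaling by library size alone the resistant columns would move towards red by about the shifts given in the text.

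The comparison of the untreated lines asked how resistant cells without drug differed from the cells they came from. CDK1, AURKB, ANLN, DLGAP5, UBE2C, CDC20 and INCENP had the largest deficits in untreated resistant cells, each with a log2 fold change of -0.72 or lower, whereas CENPE, ASPM, CENPF, KIF11 and KIF18A were higher than in parental cells. By edgeR's quasi-likelihood test at a Benjamini-Hochberg adjusted p under 0.05, 36 of the 45 genes were lower (37.3% of all 14582 genes were) and 5 were higher (38.4% of all were). CDC25C, HMMR, KIF14 and ESPL1 were not called. ESPL1 was called without the third oxamate-treated parental and the third untreated resistant library together. The median log2 fold change of the 45 genes was -0.42, beside 0.03 over all genes tested. The study's own rule, an unadjusted p under 0.05 with a fold change over 1.5, was applied here to edgeR's p-values, where the study used DESeq2. Counts by this rule are thus not the study's own. By it 1 gene was higher and 15 were lower, 16 in all, or 35.6% of the 45, where 23.4% of all genes passed.

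When both lines were on oxamate, 30 of the 45 genes were lower in resistant cells (39.7% of all genes were) and 12 were higher (40.6% of all were), with a median log2 fold change of -0.23 beside 0.01 over all genes. The genes higher in resistant cells were CENPE, ASPM, CENPF, KIF11, KIF18A, KIF14, KIF23, CDC25C, ESPL1, AURKA, HMMR and CCNB1. MKI67, BUB1B and PRC1 were not called. The call of HMMR was lost without the third parental (0.06) or the first (0.10) or second (0.09) resistant library on oxamate, that of SPC25 without any of the 3 parental (-0.14, -0.15 and -0.14) or the third resistant library (-0.08), and that of ECT2 without the first parental (-0.09) or the third resistant one (-0.07). By the study's rule 2 genes, CENPE and ASPM, were higher and 9 were lower, 11 in all or 24.4%, where 34.3% of all genes passed. This comparison shares no library with that of the untreated lines.

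The direction of these differences depends on the scaling more than on any other setting tried. With scaling by library size alone the median of all genes moved up by 0.22 between untreated lines and by 0.32 between lines on oxamate, and the calls over all genes went from 5602 higher and 5436 lower to 8540 higher and 2769 lower in the former and from 5923 higher and 5785 lower to 9133 higher and 2819 lower in the latter. Of the 45 genes, 11 were then higher and 31 lower between untreated lines, where AURKA, CCNB1 and KIF23 turned from lower to higher, and 24 were higher and 17 lower on oxamate, where CCNB2, CENPA, ECT2, KIF4A, NDC80, NUF2, PLK1, SPC25 and TTK turned from lower to higher. PRC1 and MKI67 in the former and BUB3, FOXM1, KIF20A and TPX2 in the latter were then not called. Set against the median of all genes under the same scaling, the median of the 45 was lower by the same amount either way, with differences of -0.45 (TMM) and -0.45 (library size) between untreated lines and of -0.25 and -0.25 on oxamate. A change of scaling shifts all genes by nearly the same amount, so this equality follows from the construction and tests nothing. The differences below are thus to be read as relative to the other genes of the library.

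**Figure D2:**
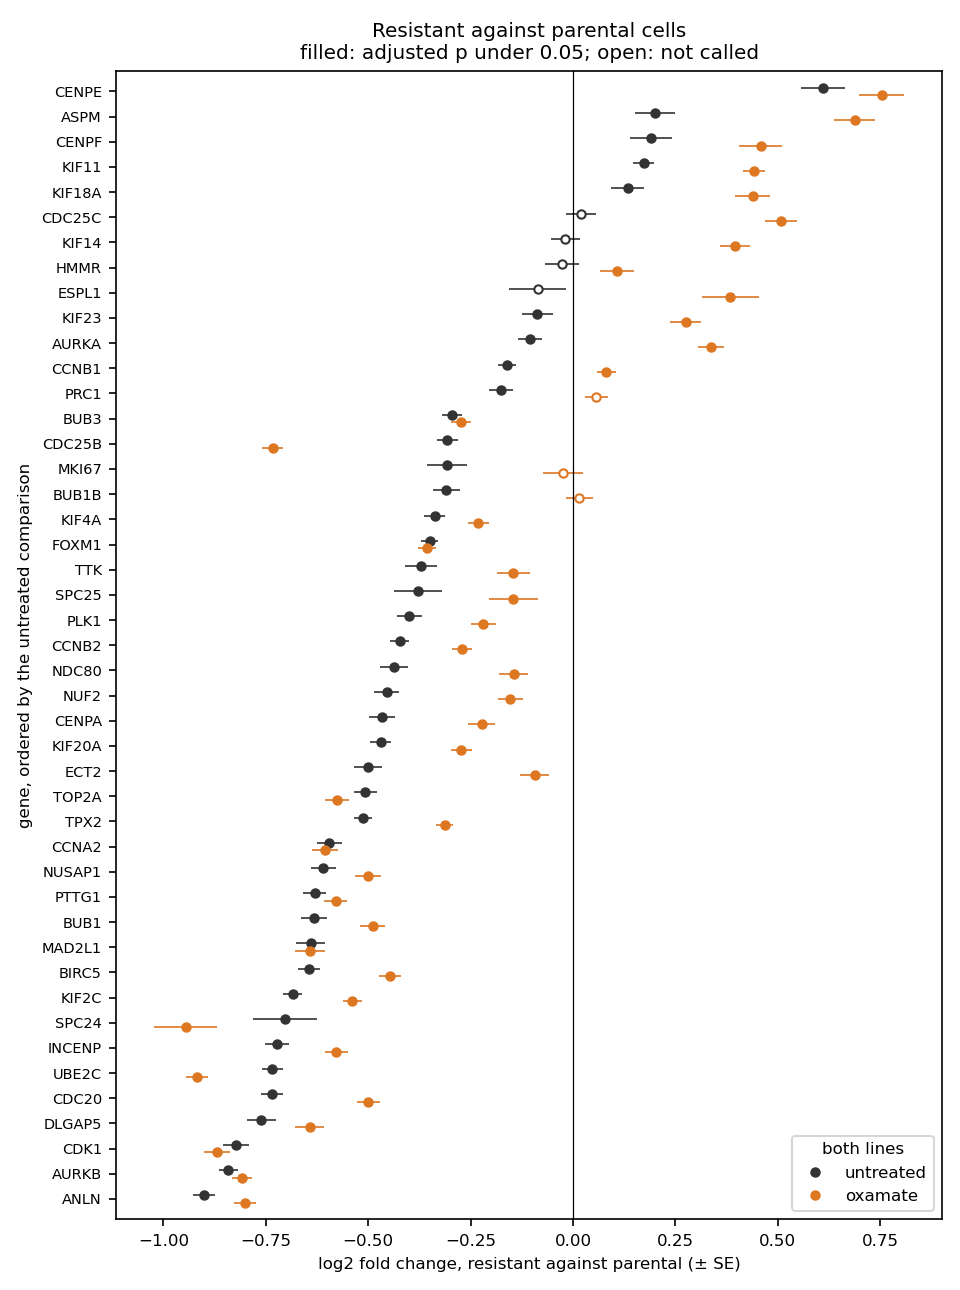
The horizontal axis gives the log2 fold change of each of the 45 genes in resistant against parental cells with its standard error, in black for untreated and in orange for oxamate-treated lines; filled points passed an adjusted p under 0.05. From ANLN at -0.90 to CENPE at 0.61 between untreated lines the genes form a graded series, and 39 of the 45 untreated and 31 of the 45 oxamate points lie left of zero; with scaling by library size alone all points move right, by 0.22 and 0.32 in the median of all genes.

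Oxamate in parental cells was followed by small changes, mostly downwards. AURKA fell most, by 28.4%, followed by ECT2 and CENPA, whereas SPC24, CDC25B and TOP2A rose. Of the 45 genes 26 fell (30.4% of all genes did), 3 rose (28.3% of all did) and 16 were not called, with a median log2 fold change of -0.10 beside 0.00 over all genes. None passed the study's rule, which 9.88% of all genes did. Scaling by library size alone moved the median of all genes by -0.07 and brought the number that fell to 41. Over all genes the number that fell went from 4439 to 5922 with it. The rise of TOP2A was then 0.01 and not called.

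Oxamate in resistant cells was followed by changes as small and mostly upwards. ESPL1, CDC25C, ASPM, KIF11, CENPF, BUB1B, KIF20A, KIF14, KIF4A, ANLN and BIRC5 rose and UBE2C and CDC25B fell. These are 11 genes that rose (9.01% of all genes did) and 2 that fell (12.5% of all did), and 32 were not called, with a median log2 fold change of 0.05 beside 0.00 over all genes. None passed the study's rule, which 2.5% of all genes did. The number that rose was 6 without the first untreated resistant library and 7 without each of the 3 resistant libraries on oxamate in turn. Over all genes it fell alike, from 1314 to 674 without the former and to 815, 904 and 701 without the latter 3. The rise of KIF4A was lost without the first (0.09) or second (0.09) untreated or the first (0.09) or the third (0.09) oxamate-treated resistant library.

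Responses of the 2 lines share no library and were compared by the interaction term of the same model. For 30 of the 45 genes the response in resistant cells was higher than in parental cells (22.7% of all genes were), for 2 it was lower (21.4% of all were), and the median difference was 0.20 beside -0.01 over all genes. Of the 12 fits that left out 1 library each, ANLN lost its call in 10 (0.07 to 0.11), all but those without the first untreated parental or the third untreated resistant library. SPC25 lost it in 8 (0.19 to 0.23), all but those without the second untreated or the third oxamate-treated library of the parental or of the resistant cells. By sign alone, 29 genes had a negative fold change in parental and a positive one in resistant cells, 12 were negative in both, 2 were positive in both, and CDC25B and FOXM1 were positive in parental and negative in resistant cells. By calls, 7 genes fell in parental and rose in resistant cells, and CDC25B rose in parental and fell in resistant cells. A further 19 fell in parental cells and were not called in resistant cells. Neither the counts by sign nor those by calls were made over all genes, so they have no share to be set against.

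**Figure D3:**
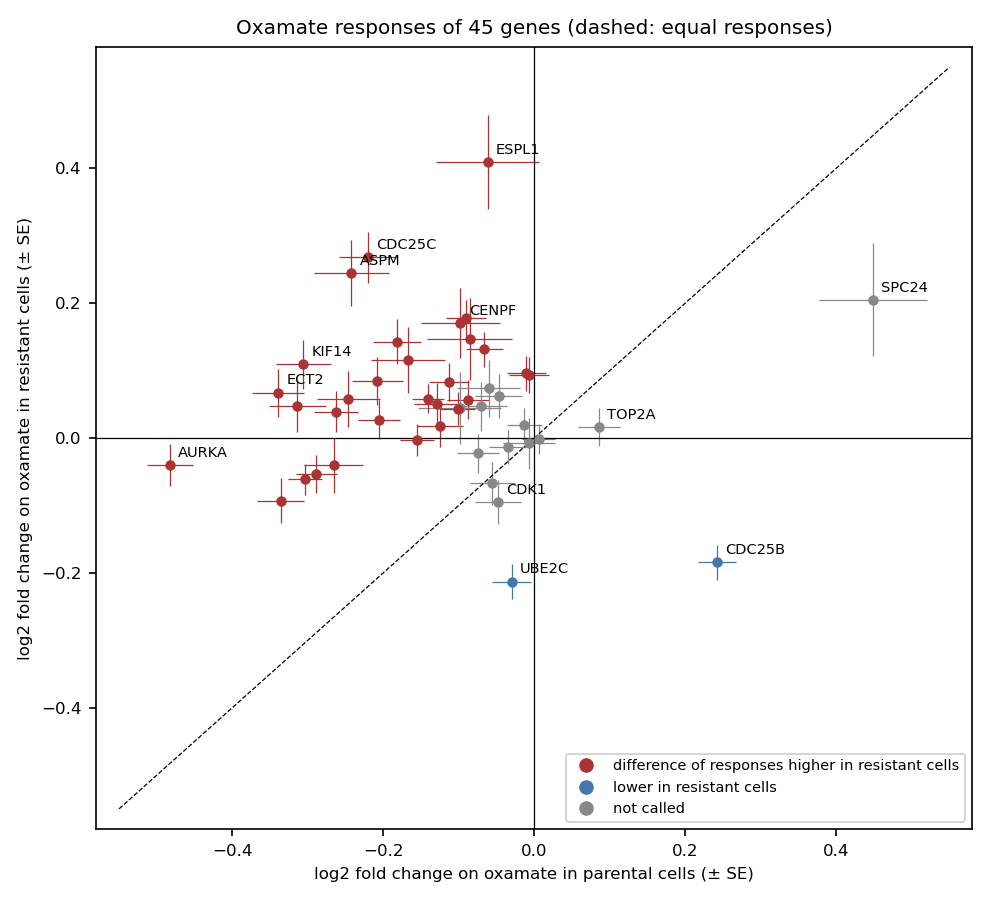
Each point is 1 of the 45 genes, with its log2 fold change on oxamate in parental cells on the horizontal and in resistant cells on the vertical axis, both with standard errors; red points had a higher and blue points a lower response in resistant cells by the interaction test, grey points were not called, and the dashed line marks equal responses. The 30 red points lie above the dashed line, the farthest being CDC25C and ASPM, each with a difference of 0.49, and CDC25B lies farthest below it at -0.43.

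Nuclear-retained RNA moved with several of these results. With its log2 level as a covariate beside the group, chosen after the data were seen, 22 of the 29 calls in parental cells kept their direction and call, those lost being BIRC5, BUB1, KIF11, KIF20A, PLK1, PTTG1 and TOP2A. CENPF and ESPL1 were gained, for 24 calls in all. In resistant cells 9 of 13 were kept, those lost being ANLN, BUB1B, CENPF and KIF14, and DLGAP5, HMMR and NDC80 were gained, for 12 in all. Between untreated lines 37 of 41 were kept, and ASPM, AURKA, CENPF and KIF18A were lost, so that the number of genes higher in resistant cells went from 5 to 2, while ESPL1 was gained. Between lines on oxamate 41 of 42 were kept, SPC25 was lost, and MKI67 and PRC1 were gained. All 32 calls of the difference of responses were kept and DLGAP5 was gained. Nuclear-retained RNA itself differed between the groups. A call lost with it as a covariate can therefore not be ascribed to it, to the line or to oxamate. Without the third oxamate-treated parental and the third untreated resistant library 30 of the 32 were kept, KIF4A and SPC25 were lost and CENPE was gained.

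CDK1, the kinase that drives entry into mitosis, stood at 111, 112 and 120.1 CPM in untreated parental cells, 110.1, 114 and 108 in parental cells on oxamate, 65.5, 64.3 and 64.0 in untreated resistant cells and 60.2, 61.4 and 59.9 in resistant cells on oxamate. The 6 resistant samples lay far below the 6 parental ones, and oxamate separated the resistant groups slightly but not the parental ones. Between untreated lines the log2 fold change was -0.82 ± 0.03 (SE, adjusted p = 2.2e-12), and on oxamate it was -0.87 ± 0.03 (adjusted p = 6.4e-13). On oxamate CDK1 changed by -0.05 ± 0.03 (adjusted p = 0.19) in parental and by -0.09 ± 0.03 (adjusted p = 0.053) in resistant cells, neither of which passed the test. The latter was called without the third oxamate-treated parental and the third untreated resistant library together. CCNB1, the cyclin B that activates CDK1, was measured at 267, 267 and 268 CPM in untreated parental cells, 221, 216 and 213 in parental cells on oxamate, 239, 239 and 239.7 in untreated resistant cells and 232, 231 and 225 in resistant cells on oxamate. The oxamate-treated parental samples were the lowest and the untreated parental samples the highest, with no overlap between any of the groups compared. The fall in parental cells was -0.30 ± 0.02 (adjusted p = 1.9e-08), and the difference between untreated lines was -0.16 ± 0.02 (adjusted p = 8.7e-06), which turned to 0.06 with scaling by library size alone. In resistant cells oxamate changed it by -0.06 ± 0.02 (adjusted p = 0.067), and the responses differed by 0.24 ± 0.03 (adjusted p = 2.0e-05).

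CCNB2, the second mitotic cyclin B, was at 97.0, 94.8 and 95.0 CPM in untreated parental cells, 85.8, 86.4 and 85.5 in parental cells on oxamate, 72.0, 72.0 and 70.04 in untreated resistant cells and 71.3, 71.3 and 71.0 in resistant cells on oxamate. Untreated parental samples were the highest, oxamate-treated parental samples came next, and the resistant groups were the lowest and overlapped. Its log2 fold change was -0.42 ± 0.02 (adjusted p = 1.3e-10) between untreated lines and -0.16 ± 0.02 (adjusted p = 2.7e-05) on oxamate in parental cells, while resistant cells showed 0.00 ± 0.02 (adjusted p = 0.95). On oxamate the lines differed by -0.27 ± 0.02 (adjusted p = 2.1e-08), or by 0.05 with scaling by library size alone. CCNA2, the cyclin A of S and G2 phase, was lower in untreated resistant cells, at -0.59 ± 0.03 (adjusted p = 6.5e-11), and was not called on oxamate in either line. CDC25B and CDC25C, the phosphatases that remove inhibitory phosphates from CDK1, went opposite ways. CDC25B was at 586, 577 and 561 CPM in untreated parental cells, 686, 667 and 687 in parental cells on oxamate, 462, 471 and 461 in untreated resistant cells and 416, 397 and 414 in resistant cells on oxamate. Oxamate put the parental samples above all others and the resistant samples below all others. It rose by 0.24 ± 0.03 (adjusted p = 8.0e-07) in parental and fell in resistant cells with -0.18 ± 0.03 (adjusted p = 1.9e-04), and the responses differed by -0.43 ± 0.04 (adjusted p = 2.4e-07). CDC25C was at 23.1, 23.1 and 23.2 CPM in untreated parental cells, 20.7, 20.2 and 18.7 in parental cells on oxamate, 23.7, 22.9 and 23.7 in untreated resistant cells and 28.5, 28.0 and 28.1 in resistant cells on oxamate. Untreated lines overlapped, the parental samples on oxamate were the lowest and the resistant samples on oxamate the highest. Its log2 fold change was -0.22 ± 0.04 (adjusted p = 1.1e-04) in parental and 0.27 ± 0.04 (adjusted p = 2.1e-04) in resistant cells, and the difference of 0.49 ± 0.05 (adjusted p = 2.8e-06) was the highest of the 45 genes.

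**Figure D4:**
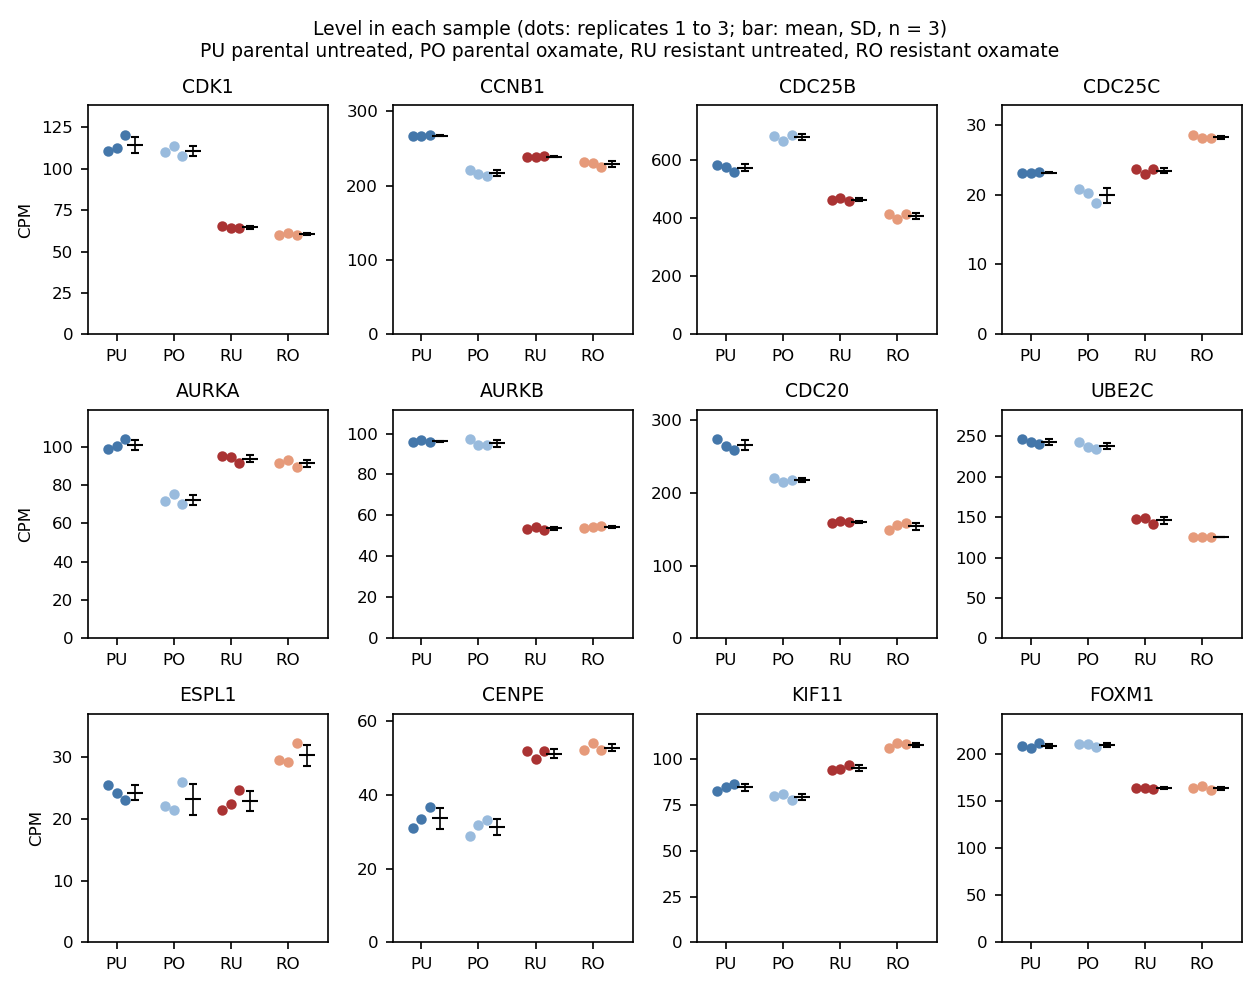
Each panel plots 1 gene in CPM from zero, with a dot for each of the 3 replicates of a group and a bar at the mean with its SD (PU untreated parental, PO oxamate-treated parental, RU untreated resistant, RO oxamate-treated resistant). CDK1, AURKB, CDC20 and UBE2C step down from the parental to the resistant samples, and AURKA dips in oxamate-treated parental samples. CDC25B and CDC25C move in opposite directions on oxamate, and CENPE and KIF11 are higher in the resistant samples. AURKA and CCNB1 are the panels whose call between untreated lines turned from lower to higher with scaling by library size alone.

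PLK1, a kinase needed for centrosome maturation and mitotic entry, was at 125, 121 and 121 CPM in untreated parental cells, 116, 114 and 107 in parental cells on oxamate, 91.5, 95.0 and 92.4 in untreated resistant cells and 97.0, 95.9 and 96.0 in resistant cells on oxamate. Each resistant sample lay below each parental one. The untreated lines differed by -0.40 ± 0.03 (adjusted p = 5.9e-09) and the lines on oxamate by -0.22 ± 0.03 (adjusted p = 6.0e-06), the latter being 0.11 with scaling by library size alone. It fell in parental cells, at -0.13 ± 0.03 (adjusted p = 0.0015) and showed 0.05 ± 0.03 (adjusted p = 0.25) in resistant cells, with a difference of 0.18 ± 0.04 (adjusted p = 0.0027). AURKA, the centrosomal Aurora kinase, was at 98.9, 100.3 and 104 CPM in untreated parental cells, 71.7, 75.3 and 69.9 in parental cells on oxamate, 95.3, 94.6 and 91.8 in untreated resistant cells and 91.3, 93.0 and 89.7 in resistant cells on oxamate. The oxamate-treated parental samples lay far below the other 9, which ran from 89.7 to 104 CPM. Its fall of -0.48 ± 0.03 (adjusted p = 3.3e-09) on oxamate was the largest of the 45 genes in parental cells, and in resistant cells oxamate changed it by -0.04 ± 0.03 (adjusted p = 0.37). The responses differed by 0.44 ± 0.04 (adjusted p = 1.0e-06). Untreated resistant cells were lower, at -0.10 ± 0.03 (adjusted p = 0.0051), which was 0.11 with scaling by library size alone, and on oxamate the resistant cells were higher by 0.34 ± 0.03 (adjusted p = 4.4e-08).

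BUB1, a checkpoint kinase of the kinetochore, was at 174, 182 and 189.6 CPM in untreated parental cells, 166, 169.6 and 164 in parental cells on oxamate, 118, 116 and 117 in untreated resistant cells and 117, 122 and 117 in resistant cells on oxamate. The resistant samples were all below the parental ones and overlapped each other. Between untreated lines the log2 fold change was -0.63 ± 0.03 (adjusted p = 3.4e-11), parental cells fell on oxamate, at -0.13 ± 0.03 (adjusted p = 0.0022), and the responses differed by 0.14 ± 0.04 (adjusted p = 0.015). The other checkpoint genes were lower in untreated resistant cells too, MAD2L1 (MAD2, the inhibitor of CDC20) with -0.64 ± 0.04 (adjusted p = 1.6e-10), TTK (the kinase MPS1) with -0.37 ± 0.04 (adjusted p = 3.3e-07), BUB1B (BUBR1) with -0.31 ± 0.03 (adjusted p = 3.0e-07) and BUB3, the adaptor of BUB1 and BUBR1, with -0.29 ± 0.02 (adjusted p = 1.9e-08). All 7 genes of this group of kinases and checkpoint proteins were lower in untreated resistant cells (37.3% of all genes were), though AURKA was not with scaling by library size alone. On oxamate 5 of the 7 fell in parental cells (30.4% of all genes did), where BUB3 and MAD2L1 were not called. BUB1B was the member of the 7 that rose in resistant cells, by 0.14 ± 0.03 (adjusted p = 0.0078).

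CDC20, the activator of the anaphase-promoting complex and target of the checkpoint, was at 274, 265 and 259.9 CPM in untreated parental cells, 221, 216 and 218 in parental cells on oxamate, 159, 162 and 159.8 in untreated resistant cells and 149, 156 and 158 in resistant cells on oxamate. The 4 groups were ordered with no overlap from untreated parental down to oxamate-treated resistant cells. It differed by -0.73 ± 0.03 (adjusted p = 1.5e-12) between untreated lines, fell in parental cells, at -0.29 ± 0.03 (adjusted p = 2.3e-07), and changed by -0.05 ± 0.03 (adjusted p = 0.19) in resistant cells, which was not called. The responses differed by 0.24 ± 0.04 (adjusted p = 1.4e-04). UBE2C, the enzyme that starts ubiquitin chains on the same complex, was at 246, 243 and 239.8 CPM in untreated parental cells, 242, 236 and 235 in parental cells on oxamate, 147, 149 and 141 in untreated resistant cells and 126, 126 and 126 in resistant cells on oxamate. Parental groups overlapped, and the oxamate-treated resistant samples were the lowest and nearly equal. It fell in resistant cells, at -0.21 ± 0.03 (adjusted p = 6.0e-05), where parental cells showed -0.03 ± 0.03 (adjusted p = 0.32), and it is with CDC25B 1 of the 2 genes with a lower response in resistant cells, at -0.18 ± 0.04 (adjusted p = 7.1e-04). On oxamate the lines differed by -0.92 ± 0.03 (adjusted p = 2.8e-14).

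PTTG1, securin, which holds separase inactive until anaphase, was at 122, 124 and 127 CPM in untreated parental cells, 121, 119 and 114 in parental cells on oxamate, 80.1, 81.3 and 79.0 in untreated resistant cells and 80.3, 79.3 and 77.2 in resistant cells on oxamate. All resistant samples were below all parental ones. Its difference between untreated lines was -0.63 ± 0.03 (adjusted p = 1.1e-11), and its fall in parental cells of -0.07 ± 0.03 (adjusted p = 0.028) was lost without the second untreated (-0.08), the third untreated (-0.06) or the third oxamate-treated (-0.05) parental library. ESPL1, the separase that cuts cohesin, was at 25.4, 24.1 and 22.9 CPM in untreated parental cells, 22.0, 21.4 and 26.0 in parental cells on oxamate, 21.5, 22.3 and 24.6 in untreated resistant cells and 29.4, 29.2 and 32.2 in resistant cells on oxamate. The oxamate-treated resistant samples were above the other 9, which overlapped. It rose in resistant cells by 0.41 ± 0.07 (adjusted p = 9.2e-04), the largest rise of the 45 genes there, and showed -0.06 ± 0.07 (adjusted p = 0.46) in parental cells. The latter was called as a fall without the third oxamate-treated parental library. The responses differed by 0.47 ± 0.10 (adjusted p = 1.0e-03). ESPL1 was highest in the third library of the oxamate-treated parental and of both resistant groups, which are those with most nuclear-retained RNA, and with that level as a covariate its rise was 0.24, with an adjusted p of 0.0079.

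The chromosomal passenger complex corrects faulty attachments and guides cytokinesis. It was lower as a whole in untreated resistant cells, with 3 of 3 genes called (37.3% of all genes were lower) and a median of -0.72. AURKB, its kinase, was at 95.7, 96.6 and 96.1 CPM in untreated parental cells, 97.1, 94.3 and 94.4 in parental cells on oxamate, 53.6, 54.5 and 52.8 in untreated resistant cells and 54.1, 54.3 and 54.7 in resistant cells on oxamate. The lines were far apart, and the treated and untreated samples of each line overlapped. Its log2 fold change was -0.84 ± 0.02 (adjusted p = 7.0e-14) between untreated lines, -0.81 ± 0.02 (adjusted p = 5.7e-14) on oxamate, -0.01 ± 0.02 (adjusted p = 0.64) for oxamate in parental and 0.02 ± 0.03 (adjusted p = 0.62) in resistant cells. BIRC5, survivin, was at 123, 121 and 119 CPM in untreated parental cells, 113, 114 and 109 in parental cells on oxamate, 75.9, 80.2 and 76.8 in untreated resistant cells and 81.8, 82.6 and 82.4 in resistant cells on oxamate. Parental samples fell slightly and resistant samples rose slightly on oxamate, with no overlap within either line. The lines differed by -0.64 ± 0.03 (adjusted p = 5.6e-12) untreated, the parental fall was -0.11 ± 0.03 (adjusted p = 0.0016) and the resistant rise 0.08 ± 0.03 (adjusted p = 0.043). That rise was not called without the first (0.07) or the third (0.07) untreated or the first (0.09), second (0.08) or the third (0.08) oxamate-treated resistant library, nor with RLE factors (0.08), no filter (0.08) or DESeq2 (0.08). The responses differed by 0.20 ± 0.04 (adjusted p = 5.9e-04). INCENP, the scaffold, differed by -0.72 ± 0.03 (adjusted p = 2.7e-12) between untreated lines and by 0.14 ± 0.04 (adjusted p = 0.0081) in its response.

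Of the 7 kinetochore and centromere genes 5 were lower (37.3% of all genes were) and 2, CENPE and CENPF, were higher (38.4% of all were) in untreated resistant cells. CENPE, a kinesin that carries chromosomes to the spindle equator, was at 31.0, 33.4 and 36.6 CPM in untreated parental cells, 28.8, 31.7 and 33.3 in parental cells on oxamate, 52.0, 49.7 and 51.9 in untreated resistant cells and 52.3, 54.0 and 52.2 in resistant cells on oxamate. Every resistant sample was above every parental one, and the parental groups overlapped. It was higher in untreated resistant cells by 0.61 ± 0.05 (adjusted p = 3.5e-08) and on oxamate by 0.75 ± 0.06 (adjusted p = 2.4e-09), and oxamate gave -0.10 ± 0.06 (adjusted p = 0.14) in parental and 0.04 ± 0.05 (adjusted p = 0.58) in resistant cells. Without the third untreated resistant library the first difference was 0.60. Without the first untreated or the third oxamate-treated parental library the change in parental cells was called as a fall. CENPE lies on chromosome 4 with MAD2L1 and CCNA2, which were lower, with -0.64 and -0.59 on the log2 scale. CENPF, a large kinetochore protein, was at 203, 211 and 220.4 CPM in untreated parental cells, 184, 192 and 216 in parental cells on oxamate, 237, 231 and 256 in untreated resistant cells and 261, 271 and 282 in resistant cells on oxamate. The parental groups overlapped, and the resistant samples on oxamate were above the untreated ones. It was higher in untreated resistant cells by 0.19 ± 0.05 (adjusted p = 0.0036), which became 0.15 without the third untreated resistant library and 0.02, not called, with nuclear-retained RNA as a covariate. Its rise in resistant cells of 0.17 ± 0.05 (adjusted p = 0.03) was not called without the first (0.16) or second (0.14) untreated or the second (0.17) or the third (0.14) oxamate-treated resistant library. In parental cells CENPF showed -0.10 ± 0.05 (adjusted p = 0.12), which was -0.17 and called without the third oxamate-treated library. The responses differed by 0.27 ± 0.07 (adjusted p = 0.0076).

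NDC80, the microtubule-binding subunit of the kinetochore, was at 64.7, 68.1 and 68.3 CPM in untreated parental cells, 58.7, 59.1 and 56.2 in parental cells on oxamate, 50.05, 51.0 and 47.3 in untreated resistant cells and 53.9, 51.8 and 51.7 in resistant cells on oxamate. The groups compared did not overlap. The untreated lines differed by -0.44 ± 0.03 (adjusted p = 9.4e-09), parental cells fell on oxamate, at -0.21 ± 0.03 (adjusted p = 7.3e-05), resistant cells showed 0.08 ± 0.04 (adjusted p = 0.10), and the responses differed by 0.29 ± 0.05 (adjusted p = 1.7e-04). On oxamate the lines differed by -0.15 ± 0.04 (adjusted p = 0.0013), or by 0.18 with scaling by library size alone. Its partner NUF2 moved alike, with -0.46 ± 0.03 (adjusted p = 1.0e-09) between untreated lines and -0.26 ± 0.03 (adjusted p = 1.4e-06) in parental cells. SPC24, from the other end of the same complex, was at 13.4, 13.0 and 12.2 CPM in untreated parental cells, 16.5, 16.1 and 20.04 in parental cells on oxamate, 8.31, 7.84 and 7.65 in untreated resistant cells and 8.48, 9.27 and 9.65 in resistant cells on oxamate. Oxamate-treated parental samples were the highest, most of all the third, and resistant samples the lowest. It rose in parental cells by 0.45 ± 0.07 (adjusted p = 6.0e-05), or by 0.34 without the third oxamate-treated library, the largest rise of the 45 genes there. The lines differed by -0.70 ± 0.08 (adjusted p = 5.7e-07) untreated and by -0.95 ± 0.08 (adjusted p = 9.5e-09) on oxamate, and the resistant response was 0.20 ± 0.08 (adjusted p = 0.093), which did not pass the test. SPC25 differed by -0.38 ± 0.06 (adjusted p = 2.1e-05) between untreated lines and was not called on oxamate in either line. CENPA, the histone that marks the centromere, fell in parental cells, at -0.34 ± 0.03 (adjusted p = 1.9e-07) and was lower in untreated resistant cells, at -0.47 ± 0.03 (adjusted p = 1.5e-09).

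All 7 genes grouped as mitotic kinesins had a higher response to oxamate in resistant than in parental cells (22.7% of all genes had), with a median difference of 0.27. CENPE, a kinesin grouped with the kinetochore genes, was not called for this difference. The call of KIF4A was lost with DESeq2 (0.11), with no filter on low counts (0.11), without the third oxamate-treated parental and the third untreated resistant library together (0.09), and without the third oxamate-treated parental (0.09), the first (0.10) or second (0.10) untreated resistant or the first (0.10) or the third (0.10) oxamate-treated resistant library alone. KIF11, the motor that pushes spindle poles apart, was at 82.7, 84.5 and 86.2 CPM in untreated parental cells, 79.6, 81.0 and 77.4 in parental cells on oxamate, 93.8, 94.7 and 96.9 in untreated resistant cells and 106, 109 and 108 in resistant cells on oxamate. The groups rose in steps from oxamate-treated parental to oxamate-treated resistant samples with no overlap. It was higher in untreated resistant cells by 0.17 ± 0.03 (adjusted p = 1.8e-05), fell in parental cells, at -0.09 ± 0.03 (adjusted p = 0.0079) and rose in resistant cells by 0.18 ± 0.03 (adjusted p = 3.0e-04), and the responses differed by 0.27 ± 0.04 (adjusted p = 3.0e-05). KIF20A, a kinesin of the central spindle, was at 129.5, 127 and 131 CPM in untreated parental cells, 121, 123 and 126 in parental cells on oxamate, 93.2, 95.2 and 91.3 in untreated resistant cells and 100.3, 103 and 103 in resistant cells on oxamate. Resistant samples were lower than parental ones, those on oxamate less so. The untreated lines differed by -0.47 ± 0.03 (adjusted p = 1.1e-10). It rose in resistant cells by 0.13 ± 0.03 (adjusted p = 0.0025), and its fall in parental cells of -0.07 ± 0.02 (adjusted p = 0.033) was not called without the first (-0.06) or the third (-0.06) untreated or the first (-0.05) or second (-0.06) oxamate-treated library. On oxamate the lines differed by -0.27 ± 0.03 (adjusted p = 5.2e-08), or by 0.05 with scaling by library size alone.

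KIF18A, which damps chromosome oscillations, was higher in untreated resistant cells by 0.13 ± 0.04 (adjusted p = 0.0075), and KIF2C (MCAK), which takes microtubule ends apart, was lower, at -0.68 ± 0.02 (adjusted p = 5.5e-13). KIF4A, a chromosome-bound kinesin, was lower, at -0.34 ± 0.03 (adjusted p = 6.6e-09), KIF23, a subunit of centralspindlin, at -0.09 ± 0.04 (adjusted p = 0.045), the latter turning positive with scaling by library size alone, and KIF14, a kinesin of cytokinesis, showed -0.02 ± 0.04 (adjusted p = 0.64). The KIF23 difference was not called without the second (-0.08) or the third (-0.08) parental or any of the 3 resistant libraries (-0.10, -0.07 and -0.09). On oxamate KIF14 fell in parental cells, at -0.31 ± 0.04 (adjusted p = 2.7e-06) and rose in resistant cells by 0.11 ± 0.04 (adjusted p = 0.043), and KIF23 fell in parental cells, at -0.31 ± 0.04 (adjusted p = 3.2e-06). The rise of KIF14 was not called with DESeq2 (0.11) or no filter (0.10), nor without the first (0.09) or second (0.09) untreated or any of the 3 oxamate-treated libraries (0.10, 0.12 and 0.11). Between untreated lines 2 of the 7 genes grouped as kinesins, which leave out CENPE, were higher (38.4% of all genes were) and 4 lower (37.3% of all were). Their median was -0.09, or 0.13 with scaling by library size alone.

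TPX2, which activates AURKA on the spindle, was at 334, 335 and 343 CPM in untreated parental cells, 307, 308 and 303 in parental cells on oxamate, 237, 237 and 235 in untreated resistant cells and 246, 246 and 247 in resistant cells on oxamate. All resistant samples were below all parental ones, and the oxamate-treated ones lay between the untreated groups. Its difference between the untreated lines was -0.51 ± 0.02 (adjusted p = 5.4e-12), parental cells fell, at -0.14 ± 0.02 (adjusted p = 3.6e-05), resistant cells showed 0.06 ± 0.02 (adjusted p = 0.064), and the responses differed by 0.20 ± 0.03 (adjusted p = 7.0e-05). On oxamate the lines differed by -0.31 ± 0.02 (adjusted p = 1.0e-09), or by 0.01 with scaling by library size alone. ASPM, a spindle pole protein, was at 62.6, 64.0 and 67.9 CPM in untreated parental cells, 53.5, 53.7 and 56.9 in parental cells on oxamate, 71.9, 69.6 and 81.7 in untreated resistant cells and 86.2, 89.4 and 88.9 in resistant cells on oxamate. Oxamate-treated parental samples were the lowest and oxamate-treated resistant samples the highest, with no overlap between the groups compared. It was higher in untreated resistant cells by 0.20 ± 0.05 (adjusted p = 0.0015), a difference of 0.13 without the third untreated resistant library and of 0.06, not called, with nuclear-retained RNA as a covariate. It fell in parental cells, at -0.24 ± 0.05 (adjusted p = 5.6e-04) and rose in resistant cells by 0.24 ± 0.05 (adjusted p = 0.0029), and the responses differed by 0.49 ± 0.07 (adjusted p = 3.9e-05). On oxamate the lines differed by 0.69 ± 0.05 (adjusted p = 2.1e-09). Of the other microtubule-associated genes DLGAP5 (HURP) and NUSAP1 were lower in untreated resistant cells, at -0.76 ± 0.04 (adjusted p = 1.9e-11) and -0.61 ± 0.03 (adjusted p = 6.9e-11), as was PRC1, which bundles the central spindle, at -0.18 ± 0.03 (adjusted p = 3.4e-05). HMMR, a spindle pole protein, showed -0.03 ± 0.04 (adjusted p = 0.58) there and was not called on oxamate in either line.

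ANLN, anillin, the scaffold of the contractile ring, had the lowest log2 fold change of the 45 genes between untreated lines. It was at 353, 359.7 and 377 CPM in untreated parental cells, 362, 362 and 361 in parental cells on oxamate, 194, 190.5 and 199 in untreated resistant cells and 209, 206 and 207 in resistant cells on oxamate. The parental groups overlapped, and all resistant samples lay far below them. The log2 fold change was -0.90 ± 0.03 (adjusted p = 1.0e-13) between untreated lines, -0.01 ± 0.03 (adjusted p = 0.85) for oxamate in parental and 0.09 ± 0.03 (adjusted p = 0.023) in resistant cells. That rise was not called without the first (0.09) or second (0.08) untreated or any of the 3 oxamate-treated resistant libraries (0.09, 0.10 and 0.09). ECT2, which activates RhoA for the ring, was at 160.3, 170.4 and 177 CPM in untreated parental cells, 134, 134 and 134 in parental cells on oxamate, 122, 115 and 122 in untreated resistant cells and 126, 129 and 122 in resistant cells on oxamate. Untreated parental samples were the highest, oxamate-treated parental samples came next, and the resistant groups overlapped. It fell in parental cells, at -0.34 ± 0.03 (adjusted p = 5.2e-07), showed 0.07 ± 0.04 (adjusted p = 0.19) in resistant cells and differed in response by 0.41 ± 0.05 (adjusted p = 7.9e-06), and the untreated lines differed by -0.50 ± 0.03 (adjusted p = 2.2e-09).

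TOP2A, the topoisomerase that untangles sister chromatids, was at 862, 877 and 920.0 CPM in untreated parental cells, 923, 953 and 946 in parental cells on oxamate, 615, 612 and 644 in untreated resistant cells and 625, 629.8 and 638 in resistant cells on oxamate. The oxamate-treated parental samples were the highest and the resistant samples the lowest, and the resistant groups overlapped. Resistant and parental cells without drug differed by -0.51 ± 0.03 (adjusted p = 1.6e-10). Its rise in parental cells of 0.09 ± 0.03 (adjusted p = 0.015) was not called without the first (0.07) or second (0.08) untreated or the second oxamate-treated (0.08) library. With scaling by library size alone that rise was 0.01 and not called. MKI67, the Ki-67 protein that coats mitotic chromosomes and is used as a proliferation marker, was at 333, 341 and 355 CPM in untreated parental cells, 287, 301 and 329 in parental cells on oxamate, 270.0, 270.3 and 291 in untreated resistant cells and 285, 296 and 319 in resistant cells on oxamate. Untreated parental samples were the highest, and the other 3 groups ran into each other. The untreated lines differed by -0.31 ± 0.05 (adjusted p = 3.0e-05), parental cells fell on oxamate, at -0.17 ± 0.05 (adjusted p = 0.0077), and resistant cells showed 0.12 ± 0.05 (adjusted p = 0.11), which was 0.15 and called without the third untreated library. The responses differed by 0.28 ± 0.07 (adjusted p = 0.0034), and on oxamate the lines differed by -0.02 ± 0.05 (adjusted p = 0.65), or by 0.30 with scaling by library size alone. FOXM1, the transcription factor that drives many of these genes, was at 208, 207 and 211 CPM in untreated parental cells, 211, 211 and 207 in parental cells on oxamate, 164, 164 and 163 in untreated resistant cells and 163, 165 and 162 in resistant cells on oxamate. It was lower in every resistant than in every parental sample, and the treated and untreated samples of each line overlapped. Its log2 fold change was -0.35 ± 0.02 (adjusted p = 6.0e-10) between untreated lines, -0.36 ± 0.02 (adjusted p = 2.6e-10) on oxamate, 0.01 ± 0.02 (adjusted p = 0.84) for oxamate in parental cells, or -0.07 with scaling by library size alone, and 0.00 ± 0.02 (adjusted p = 0.97) in resistant cells.

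Among the regulators of this program MYBL2 (B-MYB), the partner of the MuvB core in S and G2 phase, was at 243, 243 and 234 CPM in untreated parental cells, 252, 242 and 231 in parental cells on oxamate, 139, 144 and 139.8 in untreated resistant cells and 141, 142 and 142 in resistant cells on oxamate. It was lower in every resistant sample, and the treated and untreated samples of each line overlapped. The log2 fold change was -0.77 ± 0.03 (adjusted p = 2.8e-12) between untreated lines and 0.01 ± 0.03 (adjusted p = 0.77) and 0.01 ± 0.03 (adjusted p = 0.87) for oxamate in parental and resistant cells. E2F4, the E2F of the DREAM complex, was at 50.5, 50.5 and 48.7 CPM in untreated parental cells, 38.5, 39.8 and 41.9 in parental cells on oxamate, 49.7, 49.05 and 49.02 in untreated resistant cells and 50.3, 49.8 and 51.1 in resistant cells on oxamate. The oxamate-treated parental samples lay below the other 9. It fell in parental cells, at -0.32 ± 0.03 (adjusted p = 4.2e-07), showed 0.03 ± 0.03 (adjusted p = 0.49) in resistant cells and differed in response by 0.35 ± 0.04 (adjusted p = 1.4e-05). LIN9, a subunit of the MuvB core, fell in parental cells, at -0.26 ± 0.05 (adjusted p = 4.7e-04) and differed in response by 0.31 ± 0.08 (adjusted p = 0.003). CDKN1A, p21, an inhibitor of CDKs, was at 7.40, 6.89 and 6.54 CPM in untreated parental cells, 9.60, 9.44 and 9.16 in parental cells on oxamate, 5.06, 5.43 and 5.08 in untreated resistant cells and 5.97, 5.46 and 5.62 in resistant cells on oxamate. Oxamate-treated parental samples were the highest and all resistant samples below all parental ones. It rose in parental cells by 0.43 ± 0.06 (adjusted p = 1.2e-05) and was lower in untreated resistant cells, at -0.42 ± 0.06 (adjusted p = 1.4e-05). WEE1, the kinase that inhibits CDK1, fell in parental cells, at -0.36 ± 0.04 (adjusted p = 4.8e-07), was lower in untreated resistant cells, at -0.33 ± 0.04 (adjusted p = 4.6e-07) and differed in response by 0.33 ± 0.05 (adjusted p = 1.0e-04). The list of 9 CDK inhibitors and entry brakes was lower throughout in untreated resistant cells, with 9 of 9 called (37.3% of all genes were lower) and a median of -0.55, and in parental cells 6 rose (28.3% of all did) and 3 fell (30.4% of all did) on oxamate.

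Other genes of the same program, from a list of 40 mitotic genes outside the 45, had 34 lower (85%) and 3 higher (7.5%) between untreated lines, with a median of -0.42, where 37.3% of all genes were lower and 38.4% higher. On oxamate in parental cells 21 fell (52.5%, beside 30.4% of all) and 2 rose (5%, beside 28.3% of all), with a median of -0.11. CKS2 and CKS1B, which bind CDK1, had the lowest values between untreated lines, -1.44 ± 0.04 (adjusted p = 4.1e-14) and -1.03 ± 0.03 (adjusted p = 6.2e-14), and SKA1, a kinetochore protein, the highest, 0.20 ± 0.05 (adjusted p = 0.0023). KIF18B fell most in parental cells, at -0.61 ± 0.05 (adjusted p = 1.3e-07). Genes of the constitutive kinetochore had 13 of 20 lower (65%) and 2 higher (10%) between untreated lines, with a median of -0.20 (0.02 with scaling by library size alone), subunits of the anaphase-promoting complex with FZR1 had 10 of 17 lower (58.8%) and 4 higher (23.5%) with a median of -0.15 (0.07 with that scaling), and cohesin and condensin had 11 of 17 lower (64.7%) and 2 higher (11.8%) with a median of -0.25 (-0.03 with that scaling). MIS12, a kinetochore subunit, was higher by 0.36 ± 0.06 (adjusted p = 2.0e-05) between untreated lines and fell in parental cells, at -0.78 ± 0.06 (adjusted p = 3.0e-08). The 15 regulators of G2 and M transcription outside the 45 had 8 lower (53.3%) and 2 higher (13.3%), set against the same shares of all genes, with a median of -0.17 (0.05 with that scaling).

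Genes that act before mitosis were lower in resistant cells as well. Of 36 genes of the G1/S transition and DNA replication 32 were lower (88.9%, beside 37.3% of all) and 0 were higher (38.4% of all were) between untreated lines, with a median of -0.49, beside 36 lower of the 45 mitotic genes and a median of -0.42. RRM2, a subunit of ribonucleotide reductase, differed by -1.09 ± 0.02 (adjusted p = 5.4e-15) and MCM7, of the replicative helicase, by -0.99 ± 0.03 (adjusted p = 2.6e-14). On oxamate in parental cells 14 of these 36 rose (38.9%, beside 28.3% of all) and 11 fell (30.6%, beside 30.4% of all), with a median of -0.03, and in resistant cells 9 rose (25%, beside 9.01% of all) and 0 fell (12.5% of all did), with a median of 0.09. RRM2 rose in parental cells by 0.31 ± 0.02 (adjusted p = 2.8e-08) and PCNA, the sliding clamp of replication, fell, at -0.27 ± 0.04 (adjusted p = 1.3e-05).

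Long transcripts among the 45 genes differed from short ones in the comparison of the untreated lines. All 10 genes with a principal transcript under 2 kb were lower in untreated resistant cells, with a median of -0.62. Of the 22 with 2 to 4 kb, 19 were lower and 1 higher, with a median of -0.38. Of the 6 with 4 to 6 kb, 5 were lower and 1 higher, with a median of -0.50. Of the 7 with 6 kb and over, 3 were higher and 2 lower, with a median of -0.02. The medians thus did not rise steadily with length, and the longest genes stood apart. Over all genes of known length the medians in the same bins, from short to long, were -0.17, -0.01, 0.07 and 0.17. Calls over all genes were not counted by length, so the counts in these bins have no share to be set against. Spearman's rho between the log2 fold change and the transcript length was 0.47 over the 45 genes and 0.24 over the 12683 genes with a length, which share the same libraries and are not independent replicates. On oxamate rho was 0.40 in resistant and 0.06 in parental cells over the 45 genes, beside 0.12 and -0.17 over all genes. Why length and fold change move together was not tested. A CHR match lay in 22 of the 29 lower genes with a promoter entry and in 4 of the 5 higher ones.

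**Figure D5:**
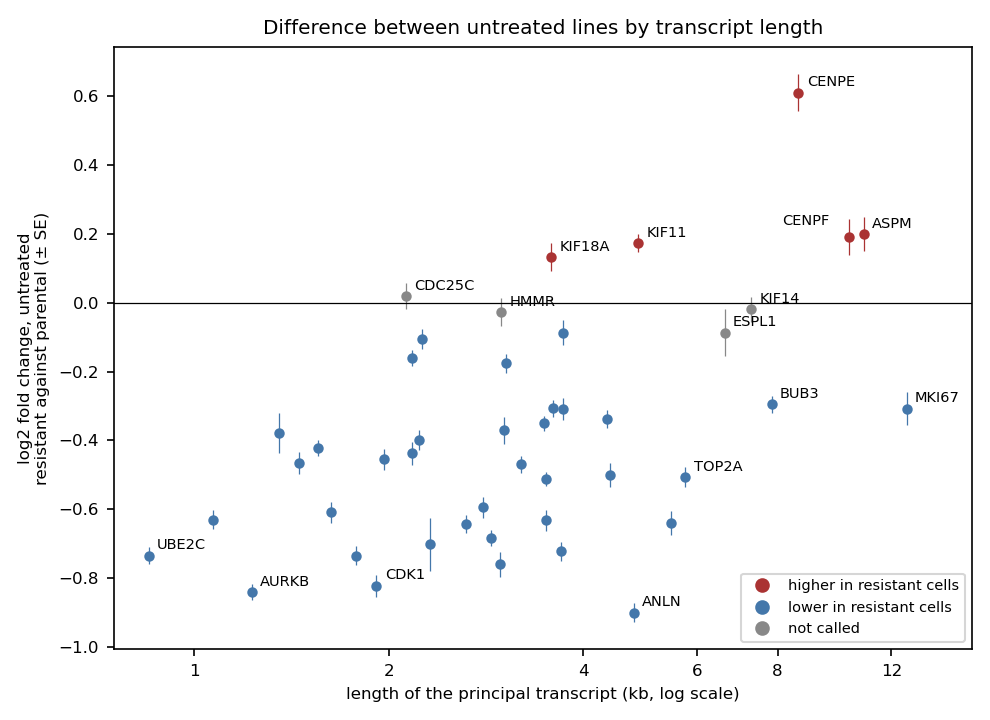
The horizontal axis gives the length of each gene's principal transcript in kb on a log scale and the vertical axis the log2 fold change between untreated lines (resistant against parental) with its standard error; blue points were called lower, red points higher and grey points not called. The 10 genes under 2 kb are all blue, and CENPE, CENPF and ASPM, all above 8 kb, are red; with scaling by library size alone all points move up, by 0.22 in the median of all genes.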

How the data were processed

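RNA was sequenced in 12 samples of MIAPaCa2 cells, 3 in each of 4 groups given by the labels. The authors deposited RSEM expected counts per gene symbol (estimated counts, not normalized). The submitters' processing notes name Bowtie2 2.1.0, RSEM 1.2.15 and hg38 (UCSC transcripts, per the methods), and the study's methods also name Trimmomatic, STAR and featureCounts and an oligo(dT) kit that does not mark strand, so reads of overlapping antisense genes cannot be told apart. RSEM splits reads between similar transcripts, and 11.6% of the values were not whole. The floor of 3 counts covers counting error only.

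Counts were rounded and fitted in R 4.3.3 with edgeR 4.0.16 (filterByExpr, TMM, glmQLFit and glmQLFTest, all 12 samples in 1 model), with Benjamini-Hochberg adjustment over 14582 genes and calls at an adjusted p under 0.05. The code was tested on simulated data. Same-numbered replicates were treated as unpaired (3 of 18 correlations of their deviations over 0.1, range -0.07 to 0.25). Differently numbered samples were not correlated for comparison, so these values do not settle whether the replicates were paired. Alternatives were RLE factors, library size alone, no filter, DESeq2 1.42.0, a replicate block, the 6 samples compared and each library left out, and 2 added after the data were seen. Transcript lengths came from GENCODE 29 and promoters from RefSeq GRCh38.p14. The members and lists were chosen with earlier results of these data known. Values for every sample were given for CDK1, CCNB1, CCNB2, CDC20, PLK1, AURKA, BUB1, KIF20A, CENPF, NDC80, BIRC5, TPX2, TOP2A, PTTG1, FOXM1 and MKI67 and, in each comparison, for the 2 called genes with the highest and the 2 with the lowest log2 fold change; KIF11 was added after its values were seen. Of each comparison list at most 2 called genes at either end were named, and 5 regulators in any case.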

Additional observations from a re-analysis of the deposited data

Results flagged for a closer look

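The response to oxamate differed between resistant and parental cells for 30 genes in the upward and 2 in the downward direction by edgeR's interaction term at a Benjamini-Hochberg adjusted p under 0.05, which is why these are listed. Of the 16 genes fixed for values in every sample and those with the highest and lowest differences, the difference of log2 fold changes (resistant minus parental) was -0.43 for CDC25B and -0.18 for UBE2C, and positive for 14 others. It was 0.14 for BUB1, 0.15 for CCNB2, 0.18 for PLK1, 0.20 for BIRC5, KIF20A and TPX2, 0.24 for CDC20 and CCNB1, 0.27 for CENPF, 0.28 for MKI67, 0.29 for NDC80, 0.44 for AURKA, and 0.49 for ASPM and CDC25C. With scaling by library size alone the median of all genes moved by 0.10 for this difference.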

How the results depend on the processing

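With scaling by library size alone, 41 of the 45 genes fell in parental cells (5922 of all 14582 genes did), with a median of -0.17. In resistant cells 17 rose (1753 of all did), with a median of 0.078. Between untreated lines 11 were higher (8540 of all were), with a median of -0.20, and 4 passed the study's rule. Between lines on oxamate 24 were higher (9133 of all were) and 17 lower (2819 of all were), and the median turned to 0.094. The median difference of responses under this scaling was 0.30. Under it FOXM1 turned to -0.069 in parental cells and to 0.10 in the difference of responses, CCNB1 to 0.058 and AURKA to 0.11 between untreated lines, and CCNB2 to 0.054, PLK1 to 0.11, KIF20A to 0.052, NDC80 to 0.18, TPX2 to 0.011 and MKI67 to 0.30 between lines on oxamate. In 2 settings chosen after seeing the data, with nuclear-retained RNA as a covariate 2 genes were higher between untreated lines, and the medians were -0.40 there and -0.25 on oxamate, and without the third oxamate-treated parental and the third untreated resistant library they were -0.41 and -0.26. With only the 6 samples compared the median between lines on oxamate was -0.20. The interaction could not be fitted on 6 samples. With the replicate block 4 genes fell in resistant cells, and no other count moved by over 1.5 times. Leaving out each library in turn gave 6 to 11 genes that rose in resistant cells, beside 666 to 1400 of all genes. The medians were then -0.11 to -0.094 in parental cells, -0.43 to -0.41 between untreated lines, -0.26 to -0.21 between lines on oxamate and 0.18 to 0.20 for the difference of responses. No other count or median of the 45 genes moved beyond the spread between replicates or by over 1.5 times under any of these settings, RLE factors, no filter and DESeq2 included. Causes were not tested. The library-size result follows from its construction, since it leaves out the TMM factors, which differed between the lines.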
